A study of Homo sapiens with 6 samples.

Results

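The genes described here encode integrins, laminins and other proteins of the extracellular matrix, with some of their receptors and modifying enzymes. They are 36 genes chosen by symbol, with earlier results of these data known, out of 19746 genes in RNA-Seq libraries of SW480, an established human colorectal cancer cell line. By role they are 5 integrin alpha chains, 5 integrin beta chains, 6 laminin chains, 5 collagen chains, 7 other matrix proteins, 5 other matrix receptors or partners of receptors, and 3 lysyl hydroxylases. The experiment asked which genes act downstream of PCYT2, the enzyme that makes CDP-ethanolamine for phosphatidylethanolamine synthesis. The control cells expressed a hairpin with no target (shNT, 2 libraries), and PCYT2 was knocked down with either of 2 hairpins (shPCYT2-1 and shPCYT2-2, spelled shPcyt2 in the labels, with 2 libraries for each). Per the study's methods, hairpins against PCYT2 were delivered by lentivirus and infected cells were selected with puromycin. The time between infection and harvest of these libraries, and whether the libraries of a group came from separate cultures or infections, are not given in the sources used here, so the p-values measure the spread between these libraries, which may be technical.

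Values are FPKM, that is, fragments per kilobase of a gene after scaling to the size of the library. Each library listed between 18806 and 19209 gene identifiers with values that summed to between 396467 and 402612, and the depth in reads is unknown. Changes were tested with limma on log2(FPKM + 1) across the 12756 genes with a mean of at least 0.5 FPKM, and a gene was called changed at a Benjamini-Hochberg adjusted p under 0.05 over those genes. Of the 36 genes, 35 were tested, and ITGB8 was below the limit. The comparisons of the hairpins with shNT share the shNT libraries. In bulk libraries, fewer cells of a type and less RNA per cell cannot be told apart.

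PCYT2, the target of the hairpins, was at 11.6 and 13.8 FPKM in the shNT libraries, 7.11 and 7.36 FPKM with shPCYT2-1, and 6.71 and 6.18 FPKM with shPCYT2-2. Every library with a hairpin against PCYT2 was lower than either control. The fall was 0.73 on the log2 scale with shPCYT2-1 (limma adjusted p = 0.00205, log2 fold change -0.73) and 0.88 with shPCYT2-2 (limma adjusted p = 0.00261, log2 fold change -0.88). The difference between them did not pass (-0.15, standard error 0.10, limma adjusted p = 0.309). With the 4 knockdown libraries pooled against shNT, PCYT2 did not pass either (log2 fold change -0.80, limma adjusted p = 0.115). Its unadjusted limma p was 9.96e-05, and only 1 of all 12756 tested genes was called in that comparison. The pooled fit has 2 groups, so differences between the hairpins count as spread within the knockdown group.

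Integrins are receptors made of 1 alpha and 1 beta chain, and the pairing decides which matrix protein a cell can hold. Laminins are trimers of an alpha, a beta and a gamma chain, and with collagen IV, nidogen, perlecan and agrin they build the basement membrane under an epithelium. In gut epithelium, integrins that contain ITGB4 anchor cells in hemidesmosomes, and those that contain ITGB1 join the matrix to the actin cytoskeleton.

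SW480 cells expressed most of these genes at high levels. The overall mean was at least 10 FPKM for 25 of the 36 genes, and the highest mean was that of ITGB4, which stood at percentile 97.7 of the tested genes. CD151, LGALS3 and PLOD3 also lay above percentile 96 in level. HSPG2, PLOD3 and AGRN share 2121, 429 and 402 exon bases with genes that overlap them in GENCODE, so reads could be split between the genes and their levels are uncertain. The lowest were ITGB8, SPARC and PLOD2. The labelled cell type matched its markers: the 8 epithelial genes were all listed, and KRT8 lay between 2734 and 3861 FPKM. Fibroblast genes summed to between 2.28 and 4.13 FPKM over 7 genes (COL3A1 and FAP were not analysed here). LUM was the most abundant with shPCYT2-1 (2.17 and 2.24 FPKM, with COL1A1 at 1.16 and 1.5 FPKM). COL1A1 was above LUM with shNT (1.08 and 1.03 against 0.789 and 0.863 FPKM). The same held with shPCYT2-2 (1.53 and 1.68 against 1.37 and 1.09 FPKM). DCN and THY1 lay at most at 0.0586 and 0.0278 FPKM, and COL1A2 had no value above 0 in 4 of the 6 libraries. Endothelial genes summed to at most 0.769 FPKM, and leukocyte genes to at most 1.41 FPKM (PTPRC not analysed here).

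**Figure D1:**
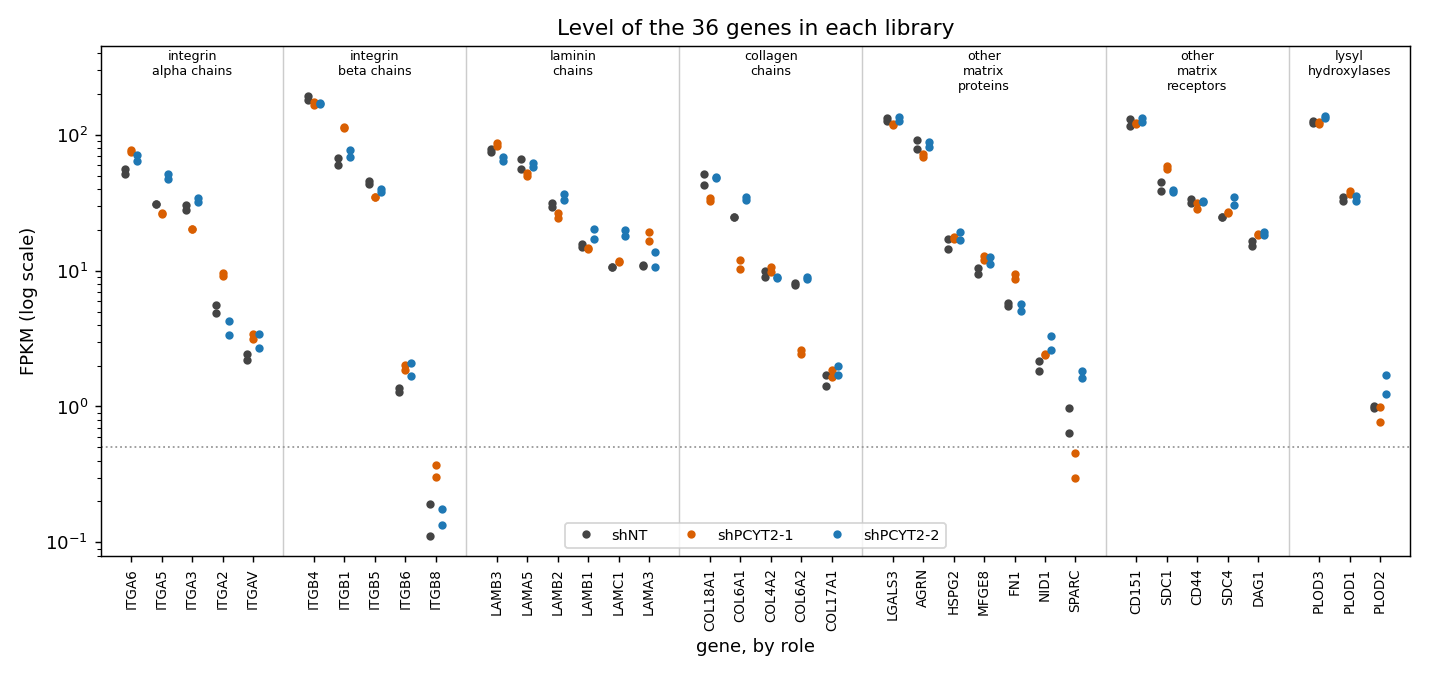
FPKM of the 36 genes on a log axis, grouped by role and ordered by mean within a role. Each point is 1 library, colored by group, and the dotted line is the limit of 0.5 FPKM on the overall mean. Levels run from 0.112 FPKM for ITGB8 to 194 FPKM for ITGB4.

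With shPCYT2-1, 15 of the 35 tested genes changed, 8 higher and 7 lower. ITGA2, ITGA6, ITGAV, ITGB1, LAMA3, FN1, MFGE8 and SDC1 were higher, and ITGA3, ITGA5, ITGB5, COL6A1, COL6A2, COL18A1 and AGRN were lower. That is 42.9% of the tested members, where 26.7% of all tested genes were called, 16.5% higher and 10.1% lower. With shPCYT2-2, 6 of the 35 changed (17.1%, where 12.4% of all tested genes were called, 7.69% higher and 4.74% lower): ITGA5, ITGA6, LAMC1, COL6A1, SPARC and SDC4, all higher. The direct comparison of the hairpins called 18 of the 35 (51.4%, where 27.1% of all tested genes were called, 12.9% higher and 14.2% lower), 12 higher and 6 lower with shPCYT2-2. When the 4 knockdown libraries were pooled against shNT, 0 of the 35 passed the limma test, with 7 (20%) at an unadjusted p under 0.05, beside 16.7% of all tested genes. In that comparison 0.00784% of all tested genes, 1 gene, was called. Opposite changes with the hairpins widen the spread in that fit, so a lack of calls does not show a lack of change.

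Abundant genes were called more often in every comparison of single groups. Among all tested genes with a mean of at least 10 FPKM, 33.9%, 19.0% and 34.4% were called with shPCYT2-1, with shPCYT2-2 and between the hairpins. Of the 25 members above that level, 44.0%, 20% and 52.0% were called. With shPCYT2-2 these shares were 20% and 19.0%. The members were also longer and richer in GC than the tested genes at large, with a median longest transcript of 5646 against 3462 bases and a median GC content of 54.4% against 49.5%. With a trend on GC content and length removed from each library, 13 of the 35 members were called with shPCYT2-2, 12 higher and 1 lower. That is 37.1% of the members, beside 12.5% of all tested genes in the same fit.

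With shPCYT2-1 the log2 fold change was above 0 for 18 of the 35 tested members and below 0 for 17, and with shPCYT2-2 it was above 0 for 26 and below 0 for 9. The median log2 fold change of the tested members was 0.11 with shPCYT2-1, 0.16 with shPCYT2-2 and 0.10 in the pooled comparison, beside 0.067, 0.044 and 0.053 for all tested genes. The SD of the members' median between replicates was 0.0628. The median with shPCYT2-1 was 0.029 without shNT replicate 1 (all tested genes 0.064), 0.058 without shNT replicate 2 (0.067) and 0.054 without shPCYT2-1 replicate 2 (0.078), each below that of all tested genes, and 0.035 with median-ratio scaling of the libraries (0.006). The pooled median was 0.047 without shNT replicate 1 (0.052) and 0.042 without shPCYT2-2 replicate 1 (0.042). Called in none of the single comparisons were ITGB4, ITGB6, LAMA5, COL4A2, COL17A1, HSPG2, NID1, LGALS3, CD44, CD151, DAG1, PLOD1 and PLOD3. Median-ratio scaling also moved the split of calls with shPCYT2-1 from 8 higher and 7 lower to 7 higher and 10 lower, and that over all tested genes from 2109 higher and 1291 lower to 1476 higher and 1713 lower. With shPCYT2-2 it moved the members from 6 higher and 0 lower to 5 higher and 2 lower, and all tested genes from 981 higher and 604 lower to 760 higher and 845 lower.

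**Figure D2:**
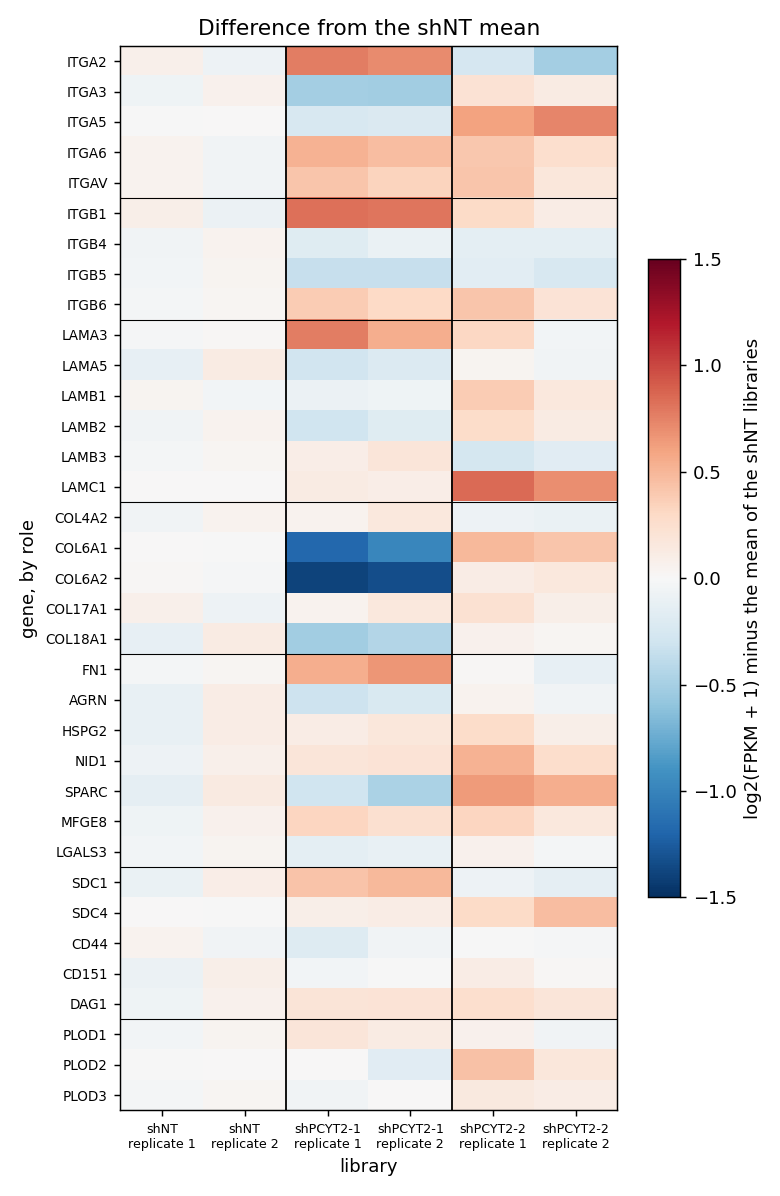
Difference of log2(FPKM + 1) in each library from the mean of the shNT libraries, for the 35 tested genes (rows, by role) in the 6 libraries (columns); red is higher and blue lower. COL6A1 and COL6A2 are the deepest blue with shPCYT2-1, and ITGA6 is red in all 4 knockdown libraries.

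Promoter sequences of 5 genes are shown because these genes carried the main patterns: ITGA6 was called in 1 direction with both hairpins, ITGA2 and COL6A2 had large differences between the hairpins in opposite directions, and ITGB1 and LAMC1 each rose with 1 hairpin. Of the 36 genes, 31 matched a promoter in the RefSeq table of GRCh38.p14 (ITGA3, ITGB4, COL6A1, AGRN and CD151 did not). Each window is the 250 bases before the RefSeq start, written 5′ to 3′ on the strand of the gene. Capitals mark matches on either strand to GGAATG (TEAD factors), TGANTCA (AP-1), CACCTG (an E-box bound by ZEB and SNAIL factors) or GGGCGG (SP/KLF factors), and no match in these 5 windows shares a base with another.
ITGA2: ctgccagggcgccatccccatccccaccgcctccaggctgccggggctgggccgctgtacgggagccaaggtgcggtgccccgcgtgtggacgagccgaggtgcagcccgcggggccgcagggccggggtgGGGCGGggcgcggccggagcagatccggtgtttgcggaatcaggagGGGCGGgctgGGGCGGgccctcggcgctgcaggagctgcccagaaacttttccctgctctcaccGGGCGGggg
ITGA6: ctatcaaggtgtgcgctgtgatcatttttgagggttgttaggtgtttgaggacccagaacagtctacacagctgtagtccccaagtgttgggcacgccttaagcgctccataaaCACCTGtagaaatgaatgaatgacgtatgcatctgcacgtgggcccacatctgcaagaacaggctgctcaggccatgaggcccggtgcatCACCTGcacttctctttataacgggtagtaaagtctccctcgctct
ITGB1: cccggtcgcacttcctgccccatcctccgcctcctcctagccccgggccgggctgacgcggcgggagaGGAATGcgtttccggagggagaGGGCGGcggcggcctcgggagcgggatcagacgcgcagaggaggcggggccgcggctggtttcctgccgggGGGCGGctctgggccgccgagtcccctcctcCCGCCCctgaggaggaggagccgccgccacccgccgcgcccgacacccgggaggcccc
LAMC1: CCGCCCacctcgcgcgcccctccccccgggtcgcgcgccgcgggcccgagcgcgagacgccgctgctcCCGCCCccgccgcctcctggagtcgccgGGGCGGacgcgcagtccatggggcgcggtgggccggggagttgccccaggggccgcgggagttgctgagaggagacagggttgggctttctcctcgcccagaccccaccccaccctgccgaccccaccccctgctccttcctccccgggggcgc
COL6A2: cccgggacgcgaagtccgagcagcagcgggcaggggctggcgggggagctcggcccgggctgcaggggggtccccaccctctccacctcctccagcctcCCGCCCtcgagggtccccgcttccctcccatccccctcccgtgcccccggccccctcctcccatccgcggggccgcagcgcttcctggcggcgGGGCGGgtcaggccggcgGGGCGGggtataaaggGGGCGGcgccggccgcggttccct

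These windows lie at chr5:52989102-52989351 (plus strand) for ITGA2, chr2:172427086-172427335 (plus strand) for ITGA6, chr10:32958231-32958480 (minus strand) for ITGB1, chr1:183023170-183023419 (plus strand) for LAMC1 and chr21:46097862-46098111 (plus strand) for COL6A2. GENCODE transcripts cover 26 bases of the ITGA2 window, 15 of the COL6A2 window and 2 of the ITGB1 window. GGGCGG was found in 26 of the 31 member promoters (83.9%) and in 42.6% of the 35116 promoters of that length in the table. Here and in the comparisons below, members have 1 promoter per gene, the first listed. The 35116 were not reduced to 1 per gene, so the sets are not fully alike. The median GC content of the windows was 70.4% for the members and 58.0% for all promoters. CACCTG was in 6 of the 31 (19.4%, against 17.5% of all promoters), namely ITGA6, ITGB6, LAMA3, LAMA5, LAMB3 and SDC1. GGAATG was in 3 (9.7%, against 11.9%), namely ITGA5, ITGB1 and SPARC, and TGANTCA in 1, LAMA3 (3.2%, against 6.6%). GENCODE exons cover all 250 bases of the SPARC window, 194 of the ITGA5 window and 180 of the LAMA3 window. Of the 31 windows, 10 held no exon base. The ITGA6 window held CACCTG at 2 places, from base -136 to -131 and from base -46 to -41 counted back from the start, and no GGGCGG. The ITGB1 window held 1 GGAATG, from base -182 to -177. A match is a description of the letters, and no binding was measured.

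Of the integrin alpha chains, 5 of 5 were called with shPCYT2-1, 2 of 5 with shPCYT2-2 and 3 of 5 between the hairpins. Among all tested genes 26.7%, 12.4% and 27.1% were called. The shPCYT2-1 calls of ITGA5 and ITGAV were lost without any 1 of the 4 libraries compared. ITGA6 (ENSG00000091409, chr2:172427354-172506282 of GRCh38), which pairs with ITGB4 or ITGB1 to bind laminin, was at 55.6 and 51.8 FPKM in the shNT libraries, 77.3 and 74.5 FPKM with shPCYT2-1, and 71.4 and 64.1 FPKM with shPCYT2-2. The 4 knockdown libraries lay above both shNT libraries. It rose with shPCYT2-1 (log2 fold change 0.49, standard error 0.072, limma adjusted p = 0.00269) and with shPCYT2-2 (log2 fold change 0.33, standard error 0.072, limma adjusted p = 0.0231). The call with shPCYT2-2 was lost without shNT replicate 2 (limma adjusted p = 0.0991) and without shPCYT2-2 replicate 1 (limma adjusted p = 0.152). It was also lost with no expression limit (limma adjusted p = 0.0876) and with no variance trend (limma adjusted p = 0.0622). GENCODE places 351 exon bases of ITGA6 under antisense genes, and whether reads were counted by strand is not stated.

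ITGA2 (ENSG00000164171, chr5:52989326-53094779), whose chain pairs with ITGB1 in a collagen receptor, was at 5.57 and 4.90 FPKM with shNT, 9.57 and 9.19 FPKM with shPCYT2-1, and 4.23 and 3.38 FPKM with shPCYT2-2. Both shPCYT2-1 libraries were the highest and both shPCYT2-2 libraries the lowest. It rose with shPCYT2-1 (log2 fold change 0.74, limma adjusted p = 0.00306), and with shPCYT2-2 its log2 fold change of -0.38 did not pass (limma adjusted p = 0.0574). The hairpins differed by -1.12 (standard error 0.11, limma adjusted p = 0.000331), and the mean with shPCYT2-1 was 2.47 times that with shPCYT2-2.

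ITGA3 (ENSG00000005884, chr17:50055968-50090481), a laminin receptor chain that works with CD151, went the other way, with 28.0 and 30.6 FPKM for shNT, 20.2 and 20.1 FPKM for shPCYT2-1, and 34.1 and 31.9 FPKM for shPCYT2-2. The groups did not overlap. ITGA3 fell with shPCYT2-1 (log2 fold change -0.52, limma adjusted p = 0.00252), and the hairpins differed by 0.68 (standard error 0.074, limma adjusted p = 0.000459). With shPCYT2-2 its log2 fold change of 0.17 did not pass (limma adjusted p = 0.161).

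ITGA5 (ENSG00000161638, chr12:54395261-54419460), the chain of the main fibronectin receptor, was at 30.8 and 30.9 FPKM with shNT, 26.0 and 26.5 FPKM with shPCYT2-1, and 47.4 and 51.8 FPKM with shPCYT2-2. It had the larger of the 2 rises with shPCYT2-2 among the alpha chains (log2 fold change 0.67, standard error 0.069, limma adjusted p = 0.00199), and the hairpins differed by 0.89 (limma adjusted p = 9.17e-05). The lower call with shPCYT2-1 (log2 fold change -0.23, limma adjusted p = 0.0411) was lost without shNT replicate 1 (0.0729) or 2 (0.0976), and without shPCYT2-1 replicate 1 (0.214) or 2 (0.143), all limma adjusted p. ITGAV, the chain of vitronectin receptors, was low, at 2.43 and 2.18 FPKM with shNT, 3.39 and 3.15 FPKM with shPCYT2-1, and 3.41 and 2.71 FPKM with shPCYT2-2. Its call with shPCYT2-1 (log2 fold change 0.37, limma adjusted p = 0.0447) was lost without any 1 of the 4 libraries compared. The log2 fold change was then 0.423 and 0.315 without shNT replicates 1 and 2, and 0.327 and 0.411 without shPCYT2-1 replicates 1 and 2. The call was also lost with no expression limit (limma adjusted p = 0.124). With the trend on GC content and length removed, the log2 fold change was 0.229 (limma adjusted p = 0.0885).

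FPKM is per length, so the chains can also be set beside each other as levels. The alpha chains summed to 122 and 120 FPKM with shNT, 137 and 133 FPKM with shPCYT2-1, and 161 and 154 FPKM with shPCYT2-2. ITGA6 made up 45.4% and 43.0% of that sum with shNT, 56.6% and 55.8% with shPCYT2-1, and 44.5% and 41.7% with shPCYT2-2. ITGA5 made up 25.2% and 25.7%, 19.1% and 19.8%, and 29.5% and 33.6% in the same order. These shares are descriptions of levels and were not tested.

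Of the 4 tested integrin beta chains, 2 were called with shPCYT2-1 and 0 with shPCYT2-2, where all 4 had an unadjusted p under 0.05, beside 31.1% of all tested genes. The called shares over all tested genes were 26.7% and 12.4%. ITGB1 (ENSG00000150093, chr10:32900319-33005792), the partner of most of the alpha chains above, was at 67.4 and 59.8 FPKM with shNT, 114 and 112 FPKM with shPCYT2-1, and 77.4 and 68.7 FPKM with shPCYT2-2. Both shPCYT2-1 libraries stood far above the other 4, and the shPCYT2-2 libraries lay just above both shNT libraries. ITGB1 rose with shPCYT2-1 (log2 fold change 0.82, standard error 0.079, limma adjusted p = 0.000578), and the hairpins differed by -0.62 (limma adjusted p = 0.000877). It made up 23.0% and 19.9% of the summed beta chains with shNT, 36% and 34.5% with shPCYT2-1, and 26.8% and 24.7% with shPCYT2-2.

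ITGB4 (ENSG00000132470, chr17:75721328-75757818), the hemidesmosome chain and the most abundant member, was at 181 and 194 FPKM with shNT, 165 and 175 FPKM with shPCYT2-1, and 169 and 170 FPKM with shPCYT2-2. The knockdown libraries were below both shNT libraries, but no comparison passed. ITGB5, which pairs with ITGAV, was at 43.3 and 45.9 FPKM with shNT, 35.0 and 34.8 FPKM with shPCYT2-1, and 39.8 and 37.7 FPKM with shPCYT2-2. It fell with shPCYT2-1 (log2 fold change -0.34, limma adjusted p = 0.00736), a call that was lost without shPCYT2-1 replicate 1 (log2 fold change -0.35, limma adjusted p at the threshold of 0.05). ITGB6, an epithelial partner of ITGAV, was between 1.27 and 2.10 FPKM, with both shNT libraries lowest, and passed in no comparison. It shares 966 exon bases with another gene on its strand, so its level is uncertain. ITGB8 lay between 0.112 and 0.371 FPKM and was not tested.

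Among the laminin chains, 1 of 6 was called with each hairpin and 5 of 6 between the hairpins. The shares over all tested genes were 26.7% with shPCYT2-1, 12.4% with shPCYT2-2 and 27.1% between the hairpins. LAMC1 (ENSG00000135862, chr1:183023460-183145592), the gamma chain of most laminins, was at 10.7 and 10.7 FPKM with shNT, 11.7 and 11.5 FPKM with shPCYT2-1, and 20 and 17.9 FPKM with shPCYT2-2. Both shPCYT2-2 libraries stood apart from the other 4. LAMC1 rose with shPCYT2-2 (log2 fold change 0.77, standard error 0.082, limma adjusted p = 0.00227), and the hairpins differed by 0.66 (limma adjusted p = 0.000774).

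LAMA3 (ENSG00000053747, chr18:23689443-23956222) and LAMB3 (ENSG00000196878, chr1:209614870-209652466), chains of the epithelial laminin that ITGA6 with ITGB4 binds, were higher with shPCYT2-1 than with shPCYT2-2. LAMA3 was at 10.8 and 11 FPKM with shNT, 19.3 and 16.4 FPKM with shPCYT2-1, and 13.7 and 10.6 FPKM with shPCYT2-2. It rose with shPCYT2-1 (log2 fold change 0.66, limma adjusted p = 0.00583), a call that was lost with no expression limit (limma adjusted p = 0.0505). Its difference between the hairpins (-0.53, limma adjusted p = 0.0124) was lost with no expression limit (limma adjusted p = 0.0725), without shPCYT2-1 replicate 1 (limma adjusted p = 0.0770) and without shPCYT2-2 replicate 2 (limma adjusted p = 0.0824). LAMB3, the most abundant laminin chain, was at 75.1 and 78.7 FPKM with shNT, 82.5 and 87.4 FPKM with shPCYT2-1, and 63.9 and 68.1 FPKM with shPCYT2-2. The groups did not overlap, and the hairpins differed by -0.36 (limma adjusted p = 0.00432). Against shNT, LAMB3 passed neither with shPCYT2-1 (log2 fold change 0.14, limma adjusted p = 0.132) nor with shPCYT2-2 (-0.22, limma adjusted p = 0.058).

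LAMB1 and LAMB2 are the beta chains of the more widespread laminins. LAMB2 was at 29.3 and 31.4 FPKM with shNT, 24.5 and 26.6 FPKM with shPCYT2-1, and 36.9 and 33.2 FPKM with shPCYT2-2, and the hairpins differed by 0.44 (limma adjusted p = 0.00466). LAMB1 was between 14.3 and 20.3 FPKM and higher with shPCYT2-2 than with shPCYT2-1 (difference 0.35, limma adjusted p = 0.0210). That call was lost without shPCYT2-1 replicate 1 (limma adjusted p = 0.105) or 2 (0.0690) and without shPCYT2-2 replicate 1 (0.114). LAMA5, the alpha chain of adult basement membranes, lay between 49.6 and 65.8 FPKM and passed in no comparison.

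Of the collagen chains, 3 of 5 were called with shPCYT2-1, all lower, and 1 of 5 with shPCYT2-2, higher. Among all tested genes 10.1% were called lower with shPCYT2-1 and 7.69% higher with shPCYT2-2. COL6A1 (ENSG00000142156, chr21:45981737-46005050 in GRCh38) and COL6A2 (ENSG00000142173, chr21:46098097-46132849) are neighbors on chromosome 21, on the plus strand, and encode chains of collagen VI, a filament network beside basement membranes. COL6A1 was at 24.7 and 24.6 FPKM with shNT, 10.3 and 12.0 FPKM with shPCYT2-1, and 34.8 and 33.2 FPKM with shPCYT2-2. COL6A2 was at 8.14 and 7.85 FPKM with shNT, 2.44 and 2.59 FPKM with shPCYT2-1, and 8.74 and 9.00 FPKM with shPCYT2-2. In both genes the shPCYT2-1 libraries were lowest and the shPCYT2-2 libraries highest, and the groups did not overlap.

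COL6A1 fell with shPCYT2-1 (log2 fold change -1.08, standard error 0.083, limma adjusted p = 0.000291), and so did COL6A2 (log2 fold change -1.36, standard error 0.089, limma adjusted p = 0.000129). The hairpins differed by 1.53 for COL6A1 (limma adjusted p = 2.21e-05) and by 1.49 for COL6A2 (limma adjusted p = 3.19e-05). Group means with shPCYT2-2 were 3.04 times and 3.52 times those with shPCYT2-1. COL6A2 did not pass with shPCYT2-2 against shNT (log2 fold change 0.13, limma adjusted p = 0.336). The rise of COL6A1 with shPCYT2-2 (log2 fold change 0.45, limma adjusted p = 0.0136) was lost without shNT replicate 2 (limma adjusted p = 0.0578) and without shPCYT2-2 replicate 1 (0.106) or 2 (0.0538).

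COL18A1 (ENSG00000182871, chr21:45405137-45513720), a basement membrane collagen that is the source of endostatin, was at 43.0 and 51.3 FPKM with shNT, 32.3 and 34.5 FPKM with shPCYT2-1, and 49.1 and 47.8 FPKM with shPCYT2-2. The shPCYT2-1 libraries were below the other 4, and the shNT and shPCYT2-2 libraries overlapped. It fell with shPCYT2-1 (log2 fold change -0.48, limma adjusted p = 0.00585), and the hairpins differed by 0.52 (limma adjusted p = 0.00308). COL18A1 shares 1401 exon bases with SLC19A1 on the opposite strand, so part of its reads could belong to that gene. COL4A2, a chain of the collagen IV network, was between 8.78 and 10.7 FPKM, and COL17A1, a hemidesmosome collagen, between 1.42 and 1.99 FPKM. Neither passed in any comparison.

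**Figure D3:**
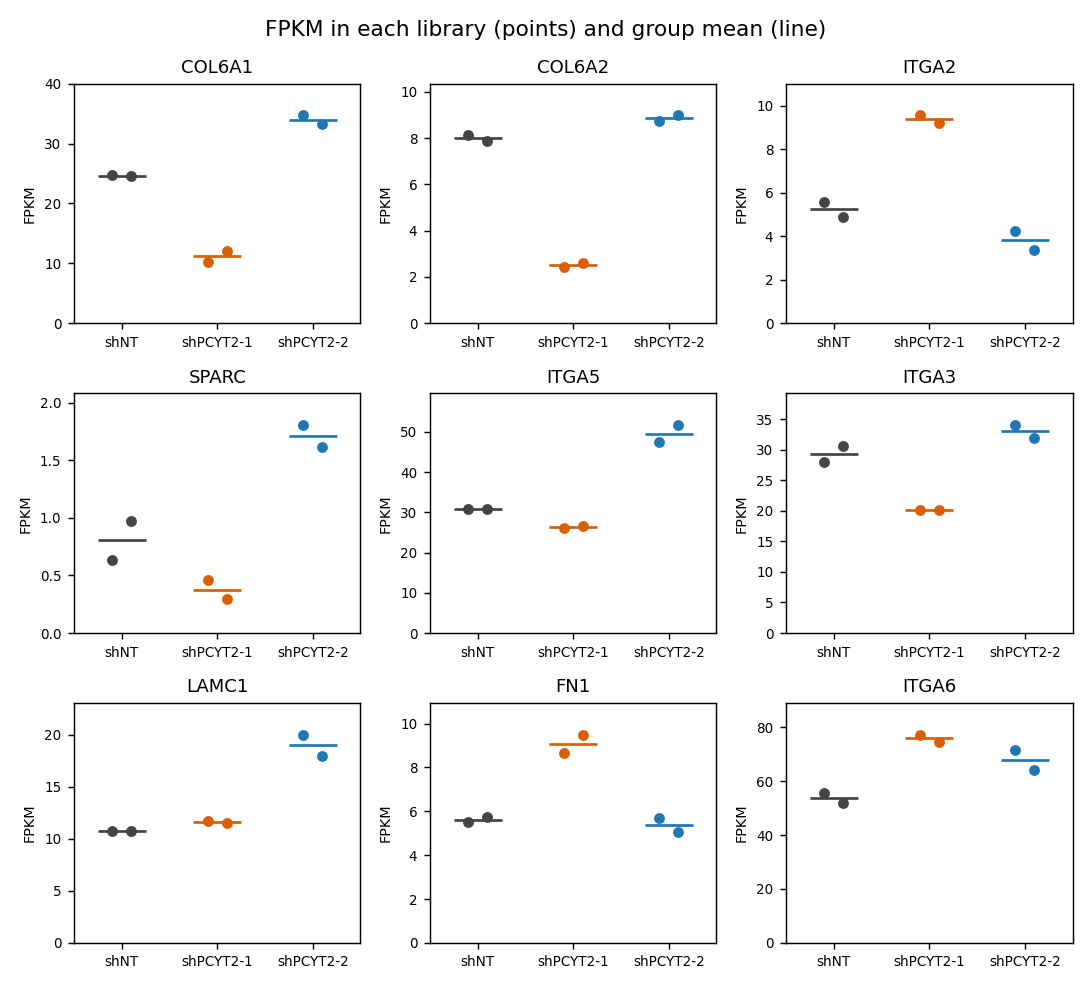
FPKM in each library (points) with the group mean (line) for the 8 genes with the largest called differences between the hairpins and for ITGA6; every vertical axis starts at 0 and has its own range. COL6A1 runs from 10.3 to 34.8 FPKM with shPCYT2-1 lowest, and ITGA2 from 3.38 to 9.57 FPKM with shPCYT2-1 highest.

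Of the 7 other matrix proteins, 3 were called with shPCYT2-1 and 1 with shPCYT2-2, beside 26.7% and 12.4% of all tested genes. FN1 (ENSG00000115414, chr2:215360440-215436172), fibronectin, the ligand of the receptor that contains ITGA5, was at 5.50 and 5.74 FPKM with shNT, 8.64 and 9.50 FPKM with shPCYT2-1, and 5.71 and 5.07 FPKM with shPCYT2-2. It rose with shPCYT2-1 (log2 fold change 0.60, standard error 0.097, limma adjusted p = 0.00368), and the hairpins differed by -0.66 (limma adjusted p = 0.00175). FN1 and ITGA5 thus ran in opposite order between the hairpins, with ITGA5 higher and FN1 lower with shPCYT2-2 than with shPCYT2-1.

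SPARC (ENSG00000113140, chr5:151661096-151687165), a secreted collagen-binding protein, was low. It was at 0.636 and 0.976 FPKM with shNT, 0.458 and 0.296 FPKM with shPCYT2-1, and 1.81 and 1.62 FPKM with shPCYT2-2. The groups did not overlap, and the hairpins differed by 0.98 (standard error 0.13, limma adjusted p = 0.000985), which on this scale understates the change of a low gene. With shPCYT2-1 its log2 fold change of -0.39 did not pass (limma adjusted p = 0.0531). Its rise with shPCYT2-2 (log2 fold change 0.59, limma adjusted p = 0.0222) was lost without shNT replicate 1 (limma adjusted p = 0.0732) and without shPCYT2-2 replicate 1 (0.128) or 2 (0.0614). SPARC shares 381 exon bases with an antisense gene.

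AGRN, agrin, a heparan sulfate proteoglycan of basement membranes, was at 78.3 and 91.5 FPKM with shNT, 68.2 and 72.2 FPKM with shPCYT2-1, and 88.0 and 81.5 FPKM with shPCYT2-2. It was called lower with shPCYT2-1 (log2 fold change -0.27, limma adjusted p = 0.0424) and higher with shPCYT2-2 than with shPCYT2-1 (0.27, limma adjusted p = 0.0408). Once a trend on GC content and transcript length had been taken out, its log2 fold change with shPCYT2-1 was -0.001 (limma adjusted p = 0.991). The call with shPCYT2-1 was lost without shNT replicate 2 (log2 fold change -0.155) and without shPCYT2-1 replicate 1 (-0.226) or 2 (-0.307). That call was also lost without either shPCYT2-2 library (log2 fold change -0.266). The difference was lost without shPCYT2-1 replicate 1 (limma adjusted p = 0.193) or 2 (0.0708), or shPCYT2-2 replicate 1 (0.197) or 2 (0.0852), and it was 0.15 (limma adjusted p = 0.0813) with that trend taken out.

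MFGE8, which bridges integrins and phosphatidylserine, was at 9.45 and 10.4 FPKM with shNT, 12.7 and 11.9 FPKM with shPCYT2-1, and 12.6 and 11.2 FPKM with shPCYT2-2. Its call with shPCYT2-1 (log2 fold change 0.29, limma adjusted p = 0.0442) was lost without any 1 of the 4 libraries compared, at a limma adjusted p of 0.146 and 0.0641 without shNT replicates 1 and 2, and 0.249 and 0.108 without shPCYT2-1 replicates 1 and 2. LGALS3, a secreted galectin and the most abundant of this group, was at 126 and 133 FPKM with shNT, 117 and 120 FPKM with shPCYT2-1, and 135 and 127 FPKM with shPCYT2-2. HSPG2, perlecan, lay between 14.4 and 19.2 FPKM, and NID1, nidogen, between 1.84 and 3.29 FPKM. None of LGALS3, HSPG2 and NID1 passed in a comparison.

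Of the 5 other matrix receptors and partners, 1 was called with each hairpin, beside 26.7% (shPCYT2-1) and 12.4% (shPCYT2-2) of all tested genes. SDC1 (ENSG00000115884, chr2:20200797-20225433), an epithelial heparan sulfate syndecan, was at 38.8 and 44.8 FPKM with shNT, 56.2 and 58.8 FPKM with shPCYT2-1, and 39.4 and 38.0 FPKM with shPCYT2-2. It rose with shPCYT2-1 (log2 fold change 0.45, limma adjusted p = 0.00484), and the hairpins differed by -0.56 (limma adjusted p = 0.00138). SDC4, the syndecan of focal adhesions, was higher with shPCYT2-2 than with shPCYT2-1, with 24.9 and 24.8 FPKM for shNT, 26.5 and 27.0 FPKM for shPCYT2-1, and 30.5 and 34.7 FPKM for shPCYT2-2. Its rise with shPCYT2-2 (log2 fold change 0.38, limma adjusted p = 0.0184) was lost without shNT replicate 2 (limma adjusted p = 0.0699) and without shPCYT2-2 replicate 1 (0.0556) or 2 (0.0779). The hairpins differed by 0.27 for SDC4 (limma adjusted p = 0.0298), a call that was lost without shPCYT2-1 replicate 1 (0.150) or 2 (0.104) or shPCYT2-2 replicate 2 (0.165). CD151, a tetraspanin that binds laminin-receptor integrins, was the most abundant of this group, at 116 and 130 FPKM with shNT, 119 and 122 FPKM with shPCYT2-1, and 132 and 125 FPKM with shPCYT2-2. CD44, the hyaluronan receptor, lay between 28.2 and 33.9 FPKM, and DAG1, dystroglycan, between 15.2 and 19.1 FPKM. CD151, CD44 and DAG1 passed in no comparison.

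The lysyl hydroxylases modify collagen chains in the endoplasmic reticulum. PLOD3 was at 122 and 126 FPKM with shNT, 119 and 125 FPKM with shPCYT2-1, and 138 and 134 FPKM with shPCYT2-2, and PLOD1 lay between 32.4 and 38.4 FPKM. Neither passed in a comparison. PLOD2 was much lower, between 0.767 and 1.71 FPKM, and higher with shPCYT2-2 than with shPCYT2-1 (0.39, limma adjusted p = 0.0483). That call was lost without any 1 of 5 libraries. The difference was 0.391 without either shNT library. It was 0.479 and 0.304 without shPCYT2-1 replicates 1 and 2, and 0.254 without shPCYT2-2 replicate 1. With a pseudocount of 0.1 it was 0.675, and the call was also lost (limma adjusted p = 0.0548). Further losses came with no expression limit (limma adjusted p = 0.109) and with a limit of 1 (0.0517). The call was lost too with the trend on GC content and length removed (limma adjusted p = 0.0651).

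Other genes of the pathway were taken as a list of 71 further integrins, laminin and collagen chains, matrix proteins, collagen-processing enzymes and integrin partners, of which 36 were above the limit. With shPCYT2-1, 16 of the 36 were called, 7 higher (among them ITGAE, COL7A1, TNC, SERPINH1, LOXL3 and FERMT1) and 9 lower (ITGA7, FBLN1, GPC1, BCAM, LOXL2, LOXL4, CRTAP, PLEC and CD81). With shPCYT2-2, 9 were called, 7 higher (ITGB7, FBLN1, BCAM, LOXL2, LOXL4, FERMT2 and CD9) and 2 lower (DDR1 and FERMT1). Between the hairpins 21 were called, 11 higher and 10 lower with shPCYT2-2. These shares were 44.4%, 25% and 58.3%, beside 26.7%, 12.4% and 27.1% of all tested genes. With each library left out in turn, TNC, SERPINH1 and LOXL2 were among 4 genes that kept their calls with shPCYT2-1, DDR1 kept its call with shPCYT2-2, and 14 genes kept theirs between the hairpins. The other calls were lost without at least 1 library, at limma adjusted p from 0.0522 to 0.247 with shPCYT2-1, from 0.0561 to 0.129 with shPCYT2-2 and from 0.0505 to 0.310 between the hairpins.

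TNC, tenascin C, rose with shPCYT2-1 from 0.824 and 0.966 FPKM to 2.69 and 2.44 FPKM (log2 fold change 0.91, limma adjusted p = 0.00127). LOXL2, which crosslinks collagen, fell with shPCYT2-1 from 6.23 and 6.31 FPKM to 2.42 and 2.59 FPKM (log2 fold change -1.05, limma adjusted p = 0.000388) and was at 8.09 and 8.64 FPKM with shPCYT2-2. Its order over the groups was that of COL6A1 and COL6A2. FBLN1, a basement membrane fibulin, and BCAM, a receptor for LAMA5, also stood higher with shPCYT2-2 than with shPCYT2-1. The log2 difference was 1.34 for FBLN1 (limma adjusted p = 0.000259) and 1.24 for BCAM (limma adjusted p = 0.000144). DDR1, a collagen receptor kinase, fell with shPCYT2-2 from 8.77 and 7.92 FPKM to 3.23 and 3.31 FPKM (log2 fold change -1.13, limma adjusted p = 0.000603).

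Markers of cell type moved with the hairpins too. KRT8, KRT18 and KRT19 were lower with shPCYT2-2 (log2 fold changes -0.41, -0.45 and -0.44, limma adjusted p = 0.00483, 0.00319 and 0.00546). The other 5 epithelial genes did not pass with shPCYT2-2, with log2 fold changes of 0.11 for EPCAM, 0.19 for CDH1, 0.14 for VIL1, -0.06 for CDX2 and -0.37 for LGALS4. The 8 genes, most of whose sum was from the 3 keratins, summed to 8212 and 8771 FPKM with shNT, 8432 and 8526 FPKM with shPCYT2-1, and 6258 and 6555 FPKM with shPCYT2-2. CDX2, an intestinal transcription factor, was lower with shPCYT2-1 (log2 fold change -0.65, limma adjusted p = 0.00138), and so was LGALS4 (log2 fold change -0.58, limma adjusted p = 0.0162). The remaining epithelial genes did not pass with shPCYT2-1. Their log2 fold changes were 0.18 for EPCAM, -0.053 for KRT8, 0.023 for KRT18, 0.058 for KRT19, 0.033 for CDH1 and 0.022 for VIL1. LUM rose with shPCYT2-1 from 0.789 and 0.863 FPKM to 2.17 and 2.24 FPKM (log2 fold change 0.81, limma adjusted p = 0.00192). PDGFRB, the highest of the other fibroblast genes besides COL1A1, was below the limit and was not tested. It was at 0.364 and 0.507 FPKM with shNT, 0.225 and 0.309 FPKM with shPCYT2-1, and 0.795 and 0.739 FPKM with shPCYT2-2. The part of these markers in the changes of the matrix genes was not tested.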

How the data were processed

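RNA-Seq of 6 SW480 libraries was analysed from 1 table per library. The authors deposited normalized values per Ensembl identifier whose unit was taken to be FPKM (they are not whole numbers, and genes above 0 are listed), and TPM over part of the genes cannot be told apart from it. Depth in reads could not be recovered from the low values. The submitters' processing notes name GRCh38 and also the mouse builds GRCm38 and mm10. The aligner and annotation are not given in the sources used here, and 2 library kits are named in the labels, with no split of the libraries between them. The study's methods name a count package for its own tests.

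Of 21539 identifiers, 115 were repeated and summed and 999 groups of identical rows were merged, which left 19746 genes. Symbols and positions came from GENCODE release 29 (GRCh38, 98.4% of identifiers matched) and promoters from RefSeq (GRCh38.p14). Tests were run in R 4.3.3 with limma 3.58.1 for the 12756 genes whose mean reached 0.5 FPKM. Values were taken as log2(FPKM + 1), the prior variance followed the mean level, and p-values were adjusted by the Benjamini-Hochberg method over these genes. The hairpins were fitted as 3 groups, and the 4 knockdown libraries were compared with shNT in a fit with 2 groups. The fit was tested on simulated data, and the outcome is not given here. With 2 libraries per group, the number of libraries limits the precision.

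Every one of the 36 genes is named. A change is stated where the adjusted p is under 0.05, and values in every library are given for genes called in the same direction with both hairpins, for the 8 largest differences between the hairpins and for the most abundant gene of each role. Other genes shown in full were chosen after their values were seen. The members, the other pathway genes, the markers and the motifs were chosen with earlier results of these data known. As alternatives, another pseudocount, other expression limits, a block on the replicate number, each library left out, median-ratio scaling, removal of a trend on GC content and length, a constant prior variance and the highest of repeated rows were tried. The values of 1 gene of the pathway list are not reported here. Figures were drawn with matplotlib 3.10.9.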

Additional observations from a re-analysis of the deposited data

Results flagged for a closer look

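The effect of the hairpins differed for 18 of the 35 tested genes, by the limma test of the difference at an adjusted p under 0.05, beside 27.1% of all tested genes. Values are log2 differences, shPCYT2-2 minus shPCYT2-1. Higher with shPCYT2-2 were COL6A1 (1.53), COL6A2 (1.49), SPARC (0.98), ITGA5 (0.89), ITGA3 (0.68), LAMC1 (0.66), COL18A1 (0.52), LAMB2 (0.44), PLOD2 (0.39), LAMB1 (0.35), AGRN (0.27) and SDC4 (0.27). Lower with shPCYT2-2 were ITGA2 (-1.12), FN1 (-0.66), ITGB1 (-0.62), SDC1 (-0.56), LAMA3 (-0.53) and LAMB3 (-0.36). The mean level of PCYT2 was 7.23 FPKM with shPCYT2-1 (SD 0.171, n = 2), and 6.44 FPKM with shPCYT2-2 (SD 0.379, n = 2). Among 37 sets of values in the 4 knockdown libraries, examined for a library far from the others, 0 held one. Each set pooled both hairpins. For the genes listed above the values thus split by hairpin, and the check could not decide whether a library stood apart.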

How the results depend on the processing

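Among 85 called changes of members and other pathway genes, 1188 alternative values were computed. Of these, 1001 kept direction and call, 187 kept direction and lost the call, and 0 reversed. With each library left out, 10 of the 15 calls with shPCYT2-1, 2 of the 6 with shPCYT2-2 (ITGA5 and LAMC1) and 13 of the 18 between the hairpins held in every case. The count with shPCYT2-2 was the least stable. It was 2 with no expression limit (0.6% of all genes called in that fit) and 13 with the trend on GC content and length removed (37.1%, beside 12.5% of all tested genes), and with each library left out it ran from 2 (without shPCYT2-2 replicate 1, 1.0% of all tested genes) to 7 (without shNT replicate 1, 14.8%), with 3 without shPCYT2-2 replicate 2 (4.4%) or shNT replicate 2 (3.2%). The count with shPCYT2-1 was 10 with no expression limit (9.3% of all genes), 17 with median-ratio scaling and 19 with the trend on GC content and length removed (25% and 26.8%), and it ran from 10 (without shPCYT2-1 replicate 1, where 9.0% of all genes were called) to 15 with each library left out. The count between the hairpins ran from 13 (without shPCYT2-1 replicate 1, 13% of all tested genes) to 19 (without either shNT library, 29.7%). The median log2 fold change of the members with shPCYT2-1 was 0.035 with median-ratio scaling and ran from 0.029 to 0.106 with each library left out. That with shPCYT2-2 ran from 0.11 to 0.227, and the pooled median was 0.176 with the trend on GC content and length removed. The spread of a median between replicates was 0.0628 (SD). PCYT2 kept its direction in every alternative, and its log2 fold change ran from -0.842 to -0.617 with shPCYT2-1 and from -0.989 to -0.764 with shPCYT2-2 with each library left out. With 1 library left in a group, that library was assumed to vary like the others. The causes of these shifts were not tested.

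With the replicate number as a block, 16, 8, 18 and 0 members were called with shPCYT2-1, with shPCYT2-2, between the hairpins and in the pooled comparison, beside 30.4%, 15.9%, 30.3% and 0.0% of all tested genes. In the pooled comparison 6 members had an unadjusted limma p under 0.05, beside 15% of all tested genes. Same-numbered libraries deviated together only weakly (correlations of 0.003, 0.062 and 0.191 across genes), so the libraries share a number and are not treated as pairs.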
